A study of Homo sapiens with 6 samples.

Results

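MHC class I antigen presentation genes were followed in MDA-MB-231 cells, a human triple-negative breast cancer (TNBC) line, after treatment with Salvia chinensis Benth (SCH). The set holds 9 genes of 58735 in the count table, chosen by name as HLA-B, HLA-C, HLA-E, HLA-F, B2M, TAP1, TAP2, TAPBP and NLRC5. All 9 passed the filter on low counts, with 14736 genes in all. The labels give 3 samples grown for 24 h with SCH at 100 mg/l and 3 grown with vehicle, all of wild type genotype and described as biological repeats. SCH was given as a hot water extract of the plant, and the vehicle is not described further. The medium is RPMI-1640 in the labels and DMEM in the study's methods. Poly-A mRNA of whole cultures was sequenced, so that a change in the RNA of each cell and a change in the mix of cells cannot be told apart. Reads assigned to genes numbered 20291379, 18714240 and 18334857 in the vehicle samples and 16836369, 17979434 and 18414924 in the SCH samples.

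Class I molecules show peptides from inside the cell to CD8+ T cells. Proteasomes cut proteins into peptides, the TAP transporter, a pair of TAP1 and TAP2, pumps them into the endoplasmic reticulum, and tapasin (TAPBP) holds the transporter to an empty class I molecule, which is a heavy chain bound to the light chain B2M. Interferon and NF-kB signaling are known to raise these genes, and NLRC5 is the transactivator that works at the promoters of heavy chain, B2M and TAP1 genes.

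The line showed the markers of its label. VIM, CD44, AXL, EGFR, KRT8, KRT18 and CAV1 were all tested, and the sum of their CPM (TMM-normalized counts on one library scale) came to 6245, 6413 and 6256 in the vehicle samples and 4546, 4531 and 4509 in the SCH samples. Of the 7, 6 fell after SCH, with CAV1 (-1.17), AXL (-0.84) and KRT18 (-0.80) the largest log2 fold changes. ESR1 had 1 to 4 counts in a sample, PGR 0 or 1 and CDH1 1 to 6. ERBB2 was measured at 6.67 FPKM on average after vehicle and 8.22 after SCH, and EPCAM at 6.53 and 4.59 FPKM. Of 10 markers of immune cells, which are rich in class I molecules, 3 (CD2, CD3D and MS4A1) had no count in any sample, and 2 passed the filter on low counts. The sum of the 10 was 2.92, 3.51 and 2.53 CPM after vehicle and 1.49, 1.99 and 1.52 CPM after SCH. Per length, CD14, a monocyte marker, was the most abundant of them in both groups, at 0.417 FPKM on average after vehicle and 0.506 FPKM after SCH. PTPRC, the common leukocyte antigen, had 0.210 FPKM after vehicle and 0.0307 FPKM after SCH. The part of these markers in the results below was not tested.

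After SCH, 7 of the 9 class I genes rose, none fell and 2 did not pass the threshold, an adjusted p under 0.05 (edgeR's quasi-likelihood test, Benjamini-Hochberg over all 14736 tested genes). The number that fell was also 0 at an unadjusted p under 0.05 and by DESeq2, but 1 (NLRC5) with upper quartile normalization and without vehicle replicate 3, and the number that rose was 6 without SCH replicate 1, where HLA-F lost its call. SE stands for standard error. Of all tested genes, 58.7% changed, 29.3% by rising and 29.4% by falling. The median log2 fold change of the 9 genes was 0.29, and that of all tested genes was -0.0034. In each of the 7 genes, every SCH sample was above every vehicle sample, as in 31.1% of tested genes (the reverse held in 31.3%), and the exact two-sided permutation test gave p = 0.1, the smallest that 3 samples against 3 allow. The 9 genes together took 0.153%, 0.158% and 0.153% of all counts after vehicle and 0.205%, 0.206% and 0.206% after SCH, without TMM scaling. With it the rise was smaller, from 1594.9, 1644.7 and 1572.5 CPM in sum after vehicle to 1981.8, 1992.7 and 1994.7 CPM after SCH. The sizes differed, since TAP1 stood at 2.004 times its vehicle level while the well-expressed heavy chains, B2M and TAPBP stood between 1.19 and 1.28 times theirs. A fall in the same samples was seen in the class II transactivator CIITA and in the chaperone CANX, both described below.

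**Figure D1:**
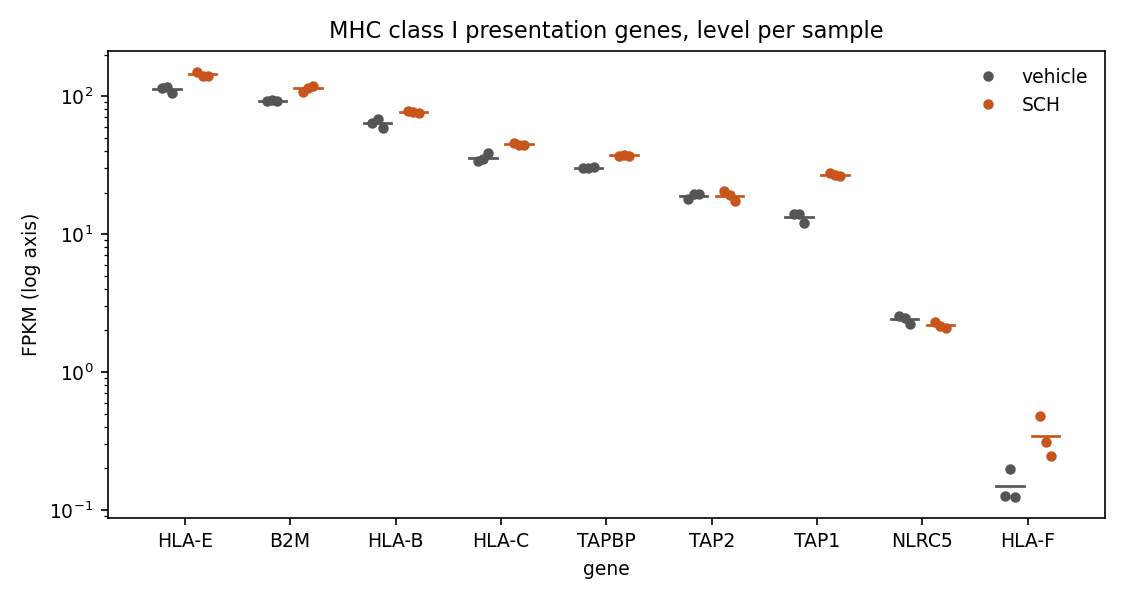
Level of each class I gene in every sample, as FPKM on a log axis. Points are samples, 3 with vehicle (grey) and 3 with SCH (orange), and lines are group means. TAP1 lies under TAP2 after vehicle and above it after SCH.

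The order of levels was read per length, in FPKM. In the vehicle samples it ran from HLA-E (112 ± 5.61 FPKM, SD, n = 3) through B2M (92.9 ± 1.47), HLA-B (63.7 ± 4.74), HLA-C (35.9 ± 2.44), TAPBP (30.2 ± 0.257), TAP2 (19.0 ± 0.918), TAP1 (13.4 ± 1.11) and NLRC5 (2.41 ± 0.167) to HLA-F (0.150 ± 0.0423). No neighbours in this order had ranges that overlapped. In the SCH samples the order was the same but for TAP1 (26.9 ± 0.805 FPKM, SD, n = 3), which now stood above TAP2 (19.0 ± 1.44), again with no overlap between neighbours. These levels depend on the gene length used by the files, which joins the exons of all annotated transcripts and is 6079 bases for B2M. For TAP2 it holds many bases shared with another gene, so its place beside TAP1 may rest on that length.

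HLA-E presents leader peptides of other class I molecules and is read by NK cell receptors. Located on chromosome 6 of GRCh38 from 30489467 to 30494205, it had 352, 356 and 325 CPM in the vehicle samples and 457, 432 and 431 CPM in the SCH samples. The groups did not overlap, and its log2 fold change was 0.35 (SE 0.049, edgeR adjusted p = 1.47e-06).

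HLA-B and HLA-C are classical heavy chains that present peptides to T cells. HLA-B, annotated from 31269491 to 31357188 on chromosome 6, had 202, 215 and 186 CPM after vehicle and 243, 240 and 237 CPM after SCH. Its log2 fold change was 0.26 (SE 0.053, edgeR adjusted p = 2.23e-04). HLA-C, from 31268749 to 31272130, had 87.97, 90.96 and 100.25 CPM after vehicle and 117, 115 and 114 CPM after SCH (log2 fold change 0.31, SE 0.056, edgeR adjusted p = 5.07e-05). Both were higher in every SCH sample, and their rises stood at percentiles 72.0 and 75.6 of all tested log2 fold changes. The annotated exons of HLA-B share 18.9% of their bases with other genes, mostly an antisense gene with no count in any sample, and heavy chain genes also resemble each other in sequence, so that some of their reads may have been dropped or shared between them.

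HLA-F, a nonclassical heavy chain with a restricted pattern of expression, was scarce. It had 11, 16 and 10 counts in the vehicle samples and 37, 26 and 21 counts in the SCH samples, or 0.564, 0.891 and 0.562 CPM against 2.12, 1.40 and 1.10 CPM. Its log2 fold change was 1.18 (SE 0.34, edgeR adjusted p = 0.00471). Without SCH replicate 1, the highest sample, it was 0.90 with an adjusted p of 0.0505 from edgeR's test, and fitted as log2(FPKM + 1), a scale that shrinks changes of such scarce genes, it was 0.22. Of its exonic bases, 28.5% lie in exons of other genes, among them the antisense HLA-F-AS1, which had 16 to 24 counts a sample and a log2 fold change of 0.26 (adjusted p = 0.49, edgeR).

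B2M, on chromosome 15 from 44711487 to 44718877, had 575, 593 and 585 CPM in the vehicle samples and 672, 722 and 747 CPM in the SCH samples. The groups were apart, with 0.29 as log2 fold change (SE 0.048, edgeR adjusted p = 1.65e-05). The summed FPKM of HLA-B, HLA-C, HLA-E and HLA-F was 2.28 ± 0.0807 times that of B2M after vehicle and 2.33 ± 0.185 times after SCH (SD, n = 3 each, exact two-sided permutation p = 0.9). Within that sum, HLA-E made up 52.9% ± 0.928 after vehicle and 54.2% ± 0.502 after SCH (SD, n = 3 each) and HLA-B 30.1% ± 1.08 and 28.9% ± 0.383. HLA-C made up 15.96%, 16.01% and 19.03% in the vehicle samples and 16.68%, 16.95% and 16.95% in the SCH samples. HLA-F made up 0.0704% ± 0.0175 after vehicle and 0.129% ± 0.0407 after SCH (SD, n = 3 each), higher in every SCH sample (exact permutation p = 0.1). In the other 3 shares the groups overlapped, with exact permutation p of 0.2 for HLA-E, 0.3 for HLA-B and 1.0 for HLA-C. A p that misses the threshold does not show that the shares were equal.

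The promoters of HLA-B and HLA-C are shown because both genes rose and because class I genes are known to carry their regulatory sites in this stretch. The sequences are RefSeq's on GRCh38.p14, minus strand, 5′ to 3′, for HLA-B at chr6:31357228-31357359 and for HLA-C at chr6:31272141-31272268, and capitals mark matches on either strand to the kappaB site, the CRE core TGACG and the CCAAT box, which is bound by the NFY factors.
HLA-B: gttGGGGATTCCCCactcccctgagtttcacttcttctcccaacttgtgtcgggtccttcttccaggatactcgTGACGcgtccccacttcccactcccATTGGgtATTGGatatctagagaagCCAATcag
HLA-C: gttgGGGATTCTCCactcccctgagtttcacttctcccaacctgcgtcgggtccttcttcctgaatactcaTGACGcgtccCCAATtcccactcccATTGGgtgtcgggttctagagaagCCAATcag
In HLA-B the kappaB capitals cover a pair of overlapping matches.

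TAP1, one of the 2 subunits of the peptide transporter, had the smallest adjusted p of the 9 genes. On chromosome 6 from 32845209 to 32853978, it had 69.8, 69.4 and 60.1 CPM in the vehicle samples and 137, 133 and 130 CPM in the SCH samples. The lowest SCH sample was far above the highest vehicle sample. Its log2 fold change was 1.00 (SE 0.060, edgeR adjusted p = 1.46e-12), at percentile 96.1 of all tested genes. TAP1 and HLA-F were the members that rose by 1 or more in log2 units, as did 3.89% of tested genes.

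TAP2, the partner of TAP1, had 118, 129 and 129 CPM after vehicle and 134, 126 and 116 CPM after SCH. The groups overlapped, with -0.0034 as log2 fold change (SE 0.058, edgeR adjusted p = 0.964, the alternatives spanning 0.145 to 0.988, with a sign that differs among them). The FPKM of TAP1 was 0.784, 0.715 and 0.619 times that of TAP2 in the vehicle samples and 1.36, 1.40 and 1.49 times in the SCH samples. On this scale the order of the pair turned in every SCH sample. The difference of the log2 ratio was 1.01 (exact two-sided permutation p = 0.1, adjusted p = 0.183 over 11 ratios). Of the exonic bases of TAP2, 32.3% lie in a gene annotated across TAP2 and HLA-DOB on the same strand, which had no count in any sample, and 9.49% of those of TAP1 lie in the antisense PSMB8-AS1. Reads in shared bases may have been dropped from the counts, while the gene length keeps these bases. The FPKM of TAP2 may thus be too low, and which gene of the pair stood higher may rest on the length used. That was not tested.

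**Figure D2:**
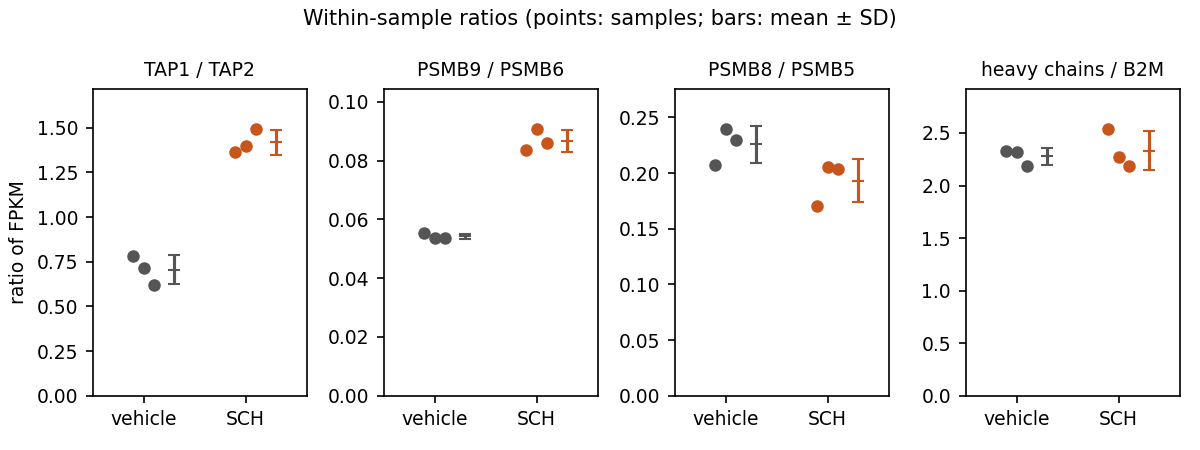
Ratios of FPKM within each sample, with axes from 0. Points are samples, and bars give the mean and SD of 3 samples. TAP1 over TAP2 and PSMB9 over PSMB6 are higher in all SCH samples, PSMB8 over PSMB5 is lower, and heavy chains over B2M overlaps.

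TAPBP, which encodes tapasin, had 156, 159 and 159 CPM after vehicle and 191, 196 and 193 CPM after SCH. The spread was small in both groups, and the log2 fold change was 0.29 (SE 0.047, edgeR adjusted p = 1.36e-05).

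NLRC5, the class I transactivator, on chromosome 16 from 56989485 to 57083531, had 32.6, 31.6 and 28.5 CPM after vehicle and 29.5, 27.7 and 26.8 CPM after SCH. The groups overlapped, and the log2 fold change was -0.15 (SE 0.076, edgeR adjusted p = 0.104, the alternatives spanning 0.0262 to 0.654). It passed the threshold as a fall with upper quartile normalization (-0.18, adjusted p = 0.0466, edgeR) and without vehicle replicate 3 (-0.20, adjusted p = 0.0262, edgeR). No alternative gave a rise of NLRC5.

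The RefSeq promoter table, which spans 250 bases before to 50 after a start, holds 7 of the 9 genes (not HLA-E or NLRC5), each read here at its first listed start. The interferon-stimulated response element (ISRE), searched on both strands as GAAA, any 2 bases and GAAA, was found in 5 of the 7, namely HLA-F, B2M, TAP1, TAP2 and TAPBP, against 3.65% of 27305 promoters. The kappaB site was found in 5 (HLA-B, HLA-C, B2M, TAP1 and TAPBP, against 10.8%), the CRE core TGACG in 4 (25.0%), the CCAAT box, searched as CCAAT, in 5 (35.7%) and the GAS element TTCNNNGAA in none (7.88%). TAP1 and TAP2 both hold the ISRE core, and of the pair TAP1 holds kappaB matches in this window, one of them printed. At a further listed start of TAP1, left out of these counts, a GAS match lay 189 bases before that start. A missing match says only that these letters are not in the window that was read. Short stretches around these matches are printed below to set the promoters of TAP1 and TAP2 side by side, with those of TAPBP and B2M, in capitals where a match lies wholly in the stretch. They run 5′ to 3′ along each gene, at chr6:32853819-32853848 and chr6:32853757-32853786 (TAP1, minus strand), chr6:32838778-32838807 (TAP2, minus), chr6:33314079-33314108 (TAPBP, minus) and chr15:44711363-44711392 (B2M, plus).
TAP1, ISRE: aggcggccgcTTTCGATTTCGCTTTCccct
TAP1, kappaB: gcctgttcctGGGACTTTCCgagagccccg
TAP2, ISRE: ctggggaagcGAAAGCGAAAgctgcccgag
TAPBP, ISRE: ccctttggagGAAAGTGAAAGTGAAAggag
B2M, ISRE: gagactctaaGAAAAGGAAACTGAAAacgg
A match is a stretch of letters, and binding was not measured.

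TAP1 and TAP2 lie in the class II region of chromosome 6 beside PSMB8 and PSMB9, subunits that replace constitutive ones in the immunoproteasome, a form of the proteasome that favours peptides for class I molecules. PSMB9 rose and PSMB8 fell. PSMB9, read from the other strand with an annotated span that covers TAP1, had 22.05, 22.28 and 19.5 CPM after vehicle and 32.0, 33.5 and 31.9 CPM after SCH (log2 fold change 0.61, SE 0.077, edgeR adjusted p = 3.95e-07). PSMB8, between TAP2 and TAP1, had 85.2, 95.4 and 87.5 CPM after vehicle and 69.3, 76.2 and 78.3 CPM after SCH (log2 fold change -0.26, SE 0.061, edgeR adjusted p = 8.05e-04). Both genes had groups that did not overlap, in opposite directions. With library size alone the change of PSMB8 was -0.16 (adjusted p = 0.0296, edgeR). PSMB8 shares 20.6% of its exonic bases with PSMB8-AS1 and PSMB9, on the other strand.

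**Figure D3:**
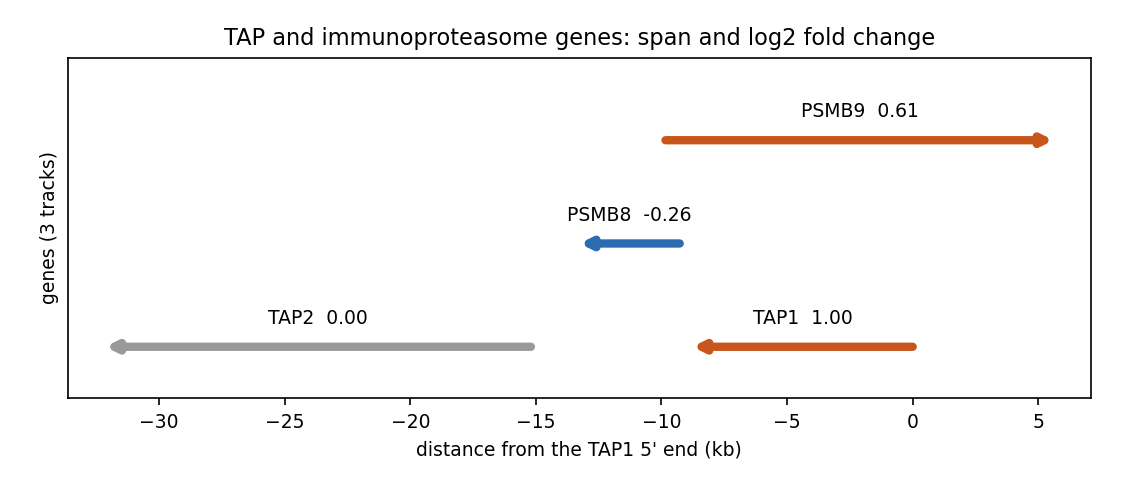
Annotated spans of TAP2, PSMB8, TAP1 and PSMB9 by distance in kb from the 5′ end of TAP1, with arrows along transcription and the log2 fold change beside each name. Orange genes rose, the blue gene fell and the grey gene did not pass the threshold.

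Of the 5 genes of the immunoproteasome list, 2 rose, 1 fell and 2 did not pass. PSME2, a subunit of the activator that opens the proteasome, rose by a log2 fold change of 0.26 (adjusted p = 1.46e-04, edgeR). Its partner PSME1 had -0.029 and the subunit PSMB10 had 0.097, with adjusted p of 0.626 and 0.415. The constitutive counterparts PSMB5, PSMB6 and PSMB7 did not pass, with log2 fold changes of -0.035, -0.069 and -0.090. Without vehicle replicate 3, PSMB6 (-0.12, adjusted p = 0.026) and PSMB7 (-0.11, adjusted p = 0.0374) passed as falls in edgeR's test, and PSMB7 also did so with upper quartile normalization (-0.12, adjusted p = 0.0339). Per length, PSMB9 stood at 0.0542 ± 0.000880 times PSMB6 after vehicle and 0.0867 ± 0.00366 times after SCH, PSMB8 at 0.226 ± 0.0164 and 0.193 ± 0.0195 times PSMB5, and PSMB10 at 0.0472 ± 0.00440 and 0.0538 ± 0.00499 times PSMB7 (SD, n = 3 each). The groups were apart in the first 2 of these ratios (exact permutation p = 0.1 each) and overlapped in the last (exact permutation p = 0.3). For PSMB8 over PSMB5 the nearest samples stood at 0.208 after vehicle and 0.206 after SCH, and the log2 difference of -0.23 became -0.14 without SCH replicate 1.

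Tapasin aside, which rose as given above, 7 further genes of peptide loading and trimming were tested, of which 4 fell and 3 did not pass, with a median log2 fold change of -0.20. CANX, the chaperone calnexin that folds new heavy chains, fell from 1751 ± 56.8 to 1466 ± 6.94 CPM (SD, n = 3 each), and on the log2 scale the change was -0.26 (edgeR adjusted p = 2.98e-05), or -0.15 with library size alone (adjusted p = 0.00414). UGGT1, the folding sensor of the endoplasmic reticulum, had -0.20, TAPBPL, a tapasin homolog that edits peptides, -0.52 and ERAP2, an aminopeptidase that trims peptides, -0.31. These 3 calls were lost under some alternatives, for UGGT1 with library size alone (-0.092, adjusted p = 0.142, edgeR). TAPBPL lost its call with DESeq2 (-0.50, adjusted p = 0.0717). It also did so in edgeR's test without SCH replicate 1 (-0.44, adjusted p = 0.0506) or 3 (-0.44, adjusted p = 0.0533). ERAP2 lost its call in 7 of 15, among them those without vehicle replicate 3 (-0.19, adjusted p = 0.176, edgeR) or without SCH replicates 1 or 3. Fitted by limma as log2(FPKM + 1), TAPBPL had -0.29 and ERAP2 -0.18. CALR (-0.032), PDIA3 (-0.048) and ERAP1 (-0.077) did not pass.

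**Figure D4:**
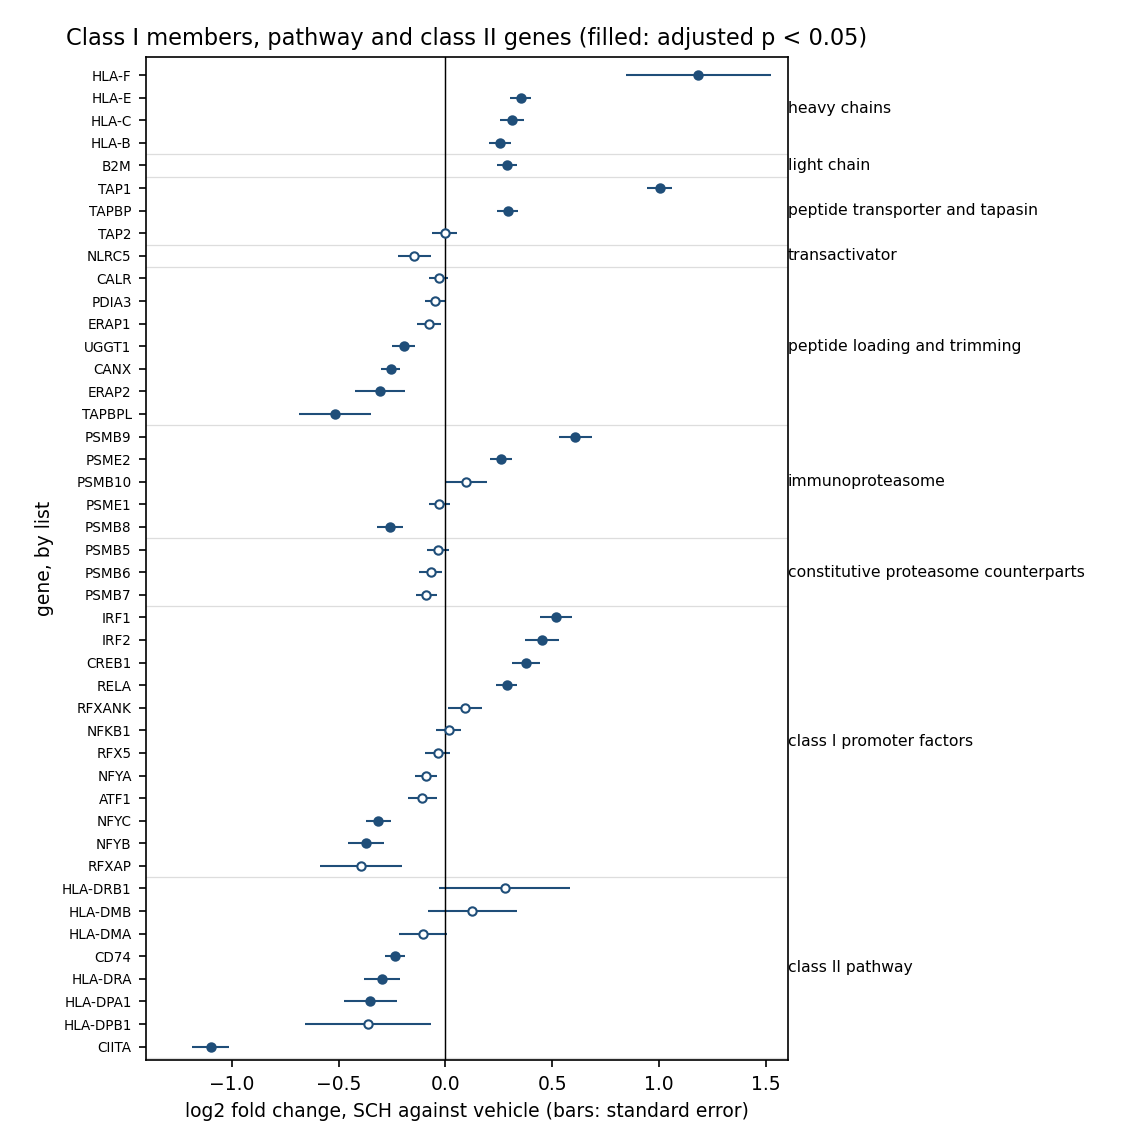
Log2 fold change of SCH against vehicle (bars, standard error) for the class I genes, the genes of their pathway and class II genes, sorted within each list. Filled points passed the adjusted p threshold of 0.05 and open points did not. All heavy chains lie above 0. The 7 genes listed under peptide loading and trimming, which leave out TAPBP, lie below it, though CALR, PDIA3 and ERAP1 turn above it with library size alone.

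Among 12 factors known to act at class I promoters, 4 rose, 2 fell and 6 did not pass. IRF1, which carries the interferon signal and shares exonic bases with genes on the other strand, had 28.3, 33.0 and 27.8 CPM after vehicle and 42.7, 42.6 and 42.2 CPM after SCH. The groups were apart, and the change was 0.52 on the log2 scale (edgeR adjusted p = 1.92e-06). IRF2, a related factor, rose by 0.45, CREB1, which binds CRE sites, by 0.38 and RELA, a subunit of NF-kB, by 0.29 on the same scale. NFKB1 (0.014) and RFX5 (-0.036), a subunit of the complex that carries NLRC5 to promoters, did not pass. The genes that fell were NFYB (-0.37) and NFYC (-0.31), named after their values were seen.

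Of 10 interferon receptor and signaling genes, 9 rose, none fell and 1 did not pass, with a median log2 fold change of 0.50. Of all tested genes, 29.3% rose and 29.4% fell. Among the genes of this list with a mean count of at least 50, the largest rises were those of SOCS1 (1.62), the feedback inhibitor of this pathway, STAT2 (0.87) and the kinase TYK2 (0.57). SOCS1 had 51, 48 and 32 counts after vehicle and 125, 125 and 152 counts after SCH, so the groups were apart. IRF9, which rose (adjusted p = 0.0405, edgeR), had 15 to 31 counts a sample and shares 48.4% of its exonic bases with another gene. IFNAR2, which did not pass, had 11 to 26 counts a sample and shares 83.2%. Both were named after their values were seen.

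Among 7 negative regulators of class I molecules, 3 rose, 2 fell and 2 did not pass. SUSD6 and TMEM127, which act in a complex that sends class I molecules to degradation, had log2 fold changes of 1.06 and 0.62, and WWP2, the ubiquitin ligase of that complex, had -0.50. SUSD6 went from 18.7 ± 0.690 to 39.1 ± 0.165 CPM (SD, n = 3 each, adjusted p = 1.60e-11, edgeR).

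Class I-like molecules include stress ligands of the NKG2D receptor of NK cells. Of 10, 7 were tested, 5 rose, 1 fell and 1 did not pass. ULBP2 went from 17.02 ± 1.31 to 32.3 ± 0.412 CPM (SD, n = 3 each), and on the log2 scale the change was 0.92 (edgeR adjusted p = 7.97e-10), and ULBP3 had 0.63. HFE, a regulator of iron uptake, fell by 0.49 on the log2 scale, and by 0.32 without SCH replicate 3, its lowest sample (adjusted p = 0.0141, edgeR). HLA-G had no count in any sample, which allows up to 3 counts in each.

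In the class II pathway, of 12 genes, 8 were tested, none rose, 4 fell and 4 did not pass. CIITA, the class II counterpart of NLRC5, had 27.1, 25.6 and 28.0 CPM after vehicle and 12.3, 12.1 and 13.3 CPM after SCH. Its log2 fold change was -1.10 (SE 0.086, edgeR adjusted p = 1.50e-10), and 23.4% of its exonic bases lie in exons of other genes. Fitted by limma as log2(FPKM + 1), it was -0.505 for CIITA. HLA-DRA (-0.30) and HLA-DPA1 (-0.35) fell as well, though neither passed with library size alone (adjusted p = 0.0543 and 0.0857, edgeR). The call of HLA-DPA1 was also lost with DESeq2 (adjusted p = 0.0975) and without SCH replicate 1 (-0.25, adjusted p = 0.106, edgeR), and as log2(FPKM + 1) in limma its change was -0.20 (adjusted p = 0.0286). CD74, the invariant chain of class II molecules, fell by 0.23 on the log2 scale and was named after its values were seen.

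Over all 54 other genes of the class I pathway lists, 51 were tested, of which 23 rose, 10 fell and 18 did not pass, with a median log2 fold change of 0.11. Of all tested genes, 29.3% rose and 29.4% fell. The genes around the members on chromosome 6 were also counted. In the interval of chromosome 6 from HLA-F to TAPBP (29722775 to 33314387), which holds 7 of the 9, 103 other genes were tested, of which 29 rose, 29 fell and 45 did not pass, with a median log2 fold change of 0.0062. The counts in this interval lie near the shares over all tested genes. Of 9 class I pseudogenes, 3 were tested and none passed (1 had an unadjusted p under 0.05 from edgeR), HLA-H with a log2 fold change of 0.027, HLA-K with 0.31 and HLA-L with 0.56.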

How the data were processed

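Deposited by the authors were unnormalized counts for each gene and, for each sample, FPKM values, which were proportional to the count over gene length within each sample. The submitters' processing notes name HISAT2 2.0.5, featureCounts 1.5.0-p3 and DESeq2 1.20.0 on GRCh38, and parameters and strand setting are not given in the sources used here. All 58735 identifiers and spans match GENCODE 29. Tests on the counts used edgeR 4.0.16 in R 4.3.3 (TMM, filterByExpr, quasi-likelihood test of SCH against vehicle, no covariates, Benjamini-Hochberg, threshold 0.05). The SE was taken as the size of the log2 fold change divided by the root of F. Ratios were taken on FPKM and tested by exact permutation. Level and motif comparisons have no test. On simulated data of 14564 genes, 89.9% of 99 changes of 1 and 68.4% of 98 changes of 0.5 on the log2 scale were recovered, and 7.14% of calls were false. A far larger share of genes changed in the real data, so these rates need not hold there. Alternatives were RLE, library size and upper quartile scaling, other filters, DESeq2 1.42.0, limma 3.58.1 on log2(FPKM + 1) and log2(FPKM + 0.1), a replicate block, leaving out each replicate, and a fold limit. Genes named were all 9 members, the loading, trimming and proteasome lists, IRF1, RFX5, RELA and NFKB1, and at most 3 changed genes of each other list by size, with a mean count of at least 50. Members and lists were chosen with earlier results of these data known. Lists were written from general knowledge, and 1 listed gene is not reported here. Figures were made with Python 3.11.15.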

Additional observations from a re-analysis of the deposited data

How the results depend on the processing

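Of the 47 named genes, 38 kept their call in all 15 alternatives, though those never past the threshold could change sign. They include HLA-B, HLA-C, HLA-E, B2M, TAP1, TAP2, TAPBP, PSMB8 and PSMB9. The cause of the other changes was not tested. When a change of 1 in log2 units was also required, 1292 genes had changed and 2 of the 9 class I genes were raised, by construction. The count of class I genes that fell went from 0 to 1 (NLRC5) with upper quartile normalization, and lay between 0 and 1 when each replicate was left out, with 1 without vehicle replicate 3. Their median log2 fold change was 0.39 with library size alone, under which the median of all tested genes was 0.099, 0.31 with no count filter and 0.26 with upper quartile normalization. No clear pairing by replicate number was seen. Deviations of same-numbered samples from their group means correlated at 0.144, -0.069 and 0.122, and not every SCH sample correlated best with its own number. With 3 samples a group such deviations are bound to each other, so they cannot exclude a pairing. With the number as a block 8705 genes had changed, 7 of the 9 class I genes raised. With 3 samples a group, scarce genes rest on few reads, as for HLA-F at 10 to 37 counts a sample. Whether depth limited their calls was not tested.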

Other observations

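A pair of ratios was added after the values were seen. The FPKM of PSMB9 was 0.252, 0.228 and 0.217 times that of PSMB8 in the vehicle samples and 0.451, 0.429 and 0.397 times in the SCH samples. The FPKM of TAP1 was 1.995 ± 0.0281 times that of PSMB9 after vehicle and 2.62 ± 0.101 times after SCH (SD, n = 3 each), so the rise of TAP1 exceeded that of its neighbour in every SCH sample. Both had an exact two-sided permutation p of 0.1, the smallest that 3 samples against 3 allow, and an adjusted p of 0.183 over 11 ratios. PSMB8-AS1, the antisense gene that shares exonic bases with PSMB8, PSMB9 and TAP1, had 38, 46 and 35 counts after vehicle and 22, 27 and 28 after SCH, a log2 fold change of -0.62 (adjusted p = 0.0339, edgeR's test). PTPRC, at 34 to 39 counts in the vehicle samples, had 4, 9 and 3 counts in the SCH samples, a log2 fold change of -2.75 (adjusted p = 8.80e-07, edgeR's test). MICA, another ligand of NKG2D, had a log2 fold change of 0.44 (adjusted p = 4.34e-07, edgeR's test). These 3 genes were also chosen after their values were seen.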
